A study of Mus musculus with 22 samples.

Results

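The p53 pathway and its target genes were followed over 34 genes in 6 genotype groups of embryonic mouse heart ventricles. The 34 were chosen by pathway membership, by gene symbol, out of the 48709 gene identifiers of the count tables, with earlier results of these counts known. Which measured values guided that choice is not recorded, so the counts of genes below are a description and support nothing further. All 34 were found in both count tables and passed the filter on low counts, a mean count above 1 over the libraries of an experiment. By textbook role they are 3 regulators, 7 genes of cell cycle arrest, 13 of apoptosis, 4 of DNA repair and 7 of metabolism and stress defence.

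Poly-A RNA was sequenced from ventricles of E13.5 embryos. The study asked what happens in the growing heart on loss of LIN9, which belongs to the MuvB core of complexes that regulate cell cycle genes, and of SAV1, a scaffold of the Hippo kinases. Experiment 1 held LIN9wt and LIN9KO hearts, and experiment 2 held LIN9wt/SAV1wt, LIN9wt/SAV1KO, LIN9KO/SAV1wt and LIN9KO/SAV1KO hearts, with 3 libraries in each group. The knockouts were Lin9 fl/fl, with loxP sites around exon 7, and Sav1 fl/fl of the line Sav1tm1.1Dupa/J, with loxP sites around exon 3. The LIN9 wt groups, called wild-type in the labels, were Lin9 fl/+ in the study's description, and the Sav1 wt groups were Sav1 +/+. All groups carried Nkx2.5-Cre, which is active in cardiac precursor cells, so other cells of the ventricle can keep intact alleles, and a LIN9 wt heart can have lost 1 Lin9 allele. Libraries held 9485599 to 9615274 counts in experiment 1 and 2770741 to 2999877 in experiment 2. Levels are CPM, the usual scaling of counts to library size, here with TMM-normalised sizes, and before that normalisation 1 count was worth 0.104 to 0.105 CPM in experiment 1 and 0.333 to 0.361 CPM in experiment 2, so low genes are measured less precisely in experiment 2. RNA was prepared in triplicate, and the sources used here do not say whether the 3 libraries of a group came from separate embryos. A legend of the study describes the LIN9 comparison as 2 biological replicates that were each run in triplicate. Libraries of a group may thus be technical repeats. The p-values therefore measure only the spread between these libraries.

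p53, encoded by Trp53, is a transcription factor that DNA damage and other stresses stabilise. It activates Mdm2, whose product is a ubiquitin ligase that degrades p53, together with genes that halt the cell cycle, open the mitochondrial and receptor routes to apoptosis, repair DNA or alter metabolism. Its target Cdkn1a encodes p21, which inhibits cyclin-dependent kinases and thereby favours assembly of DREAM, a repressor complex that contains the MuvB core with LIN9. Mdm2 restrains p53 in the heart, and its loss from cardiomyocytes is lethal before birth through p53. Regulation of p53 acts largely on the protein, which was not measured here.

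Promoter sequences show where p53 half-sites, the 10-base units that p53 binds in pairs, lie near the starts of these genes. RefSeq windows of the GRCm38.p6 build, 250 bases before to 50 after a start, were found for 27 of the 34 genes in 38 windows, and windows of 1 gene can overlap. The other 7 genes were Perp, Pmaip1, Rrm2b, Tnfrsf10b, Trp53inp1, Xpc and Zmat3. Half-sites without mismatch, sought on both strands, were found in 12 of 38 windows, or 31.6%, against 8.36% of all 32851 windows. These windows belong to 11 genes: Aen, Bax, Ccng1, Cdkn1a, Ei24, Gadd45a, Mdm2, Polk, Rps27l, Sesn1 and Trp53. The regulators Trp53, Mdm2 and Ccng1 are thus all among them, and the sequence of Trp53 is not printed. Pairs of half-sites with up to 1 mismatch each and up to 13 bases between them were found in 2 of 38 windows, or 5.26%, against 1.39% of all. They belong to Cdkn1a and Rps27l. The CHR element, through which MuvB complexes bind, was sought as TTTGAA and as TTCGAA, each on both strands. TTTGAA was in 5 of 38 windows, or 13.2%, against 17.9% of all, and TTCGAA was in 2 of 38, or 5.26%, against 1.56%. Both windows with TTCGAA belong to Psrc1, overlap and hold the same site, so the share counts that site in each. Its position below is given from the start of the second, downstream window. A match describes letters in a window and says nothing of binding. The sequences below are those of the pairs, of Mdm2 and Ccng1 among the regulators, and of Psrc1, each read 5′ to 3′ along the gene's strand with the matched bases in capitals. The stretch of Cdkn1a is chr17:29090876-29090977 on the plus strand, with its matches 73 to 32 bases before the start and 2 of its bases in an annotated exon. That of Rps27l is chr9:66946266-66946345 on the plus strand, inside the gene but outside its exons, with the pair 117 to 98 bases before the start. Those of Mdm2 at chr10:117710905-117710974 and of Ccng1 at chr11:40755432-40755501, both on the minus strand, and of Psrc1 at chr3:108383778-108383837 on the plus strand lie outside annotated genes, with matches at 186 to 177, 185 to 176 and 30 to 25 bases before the start.
Cdkn1a: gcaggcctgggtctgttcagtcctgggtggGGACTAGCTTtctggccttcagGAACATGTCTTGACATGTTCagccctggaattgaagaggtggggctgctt
Rps27l: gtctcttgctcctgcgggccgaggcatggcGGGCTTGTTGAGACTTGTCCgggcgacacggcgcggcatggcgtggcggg
Mdm2: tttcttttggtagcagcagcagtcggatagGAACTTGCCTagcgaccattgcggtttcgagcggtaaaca
Ccng1: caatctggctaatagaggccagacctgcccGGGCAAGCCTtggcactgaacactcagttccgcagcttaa
Psrc1: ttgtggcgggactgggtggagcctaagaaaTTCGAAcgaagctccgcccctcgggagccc

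The targeted genes were read first. Lin9 was at 29.8, 21.4 and 25.6 CPM in the 3 LIN9wt libraries of experiment 1 and at 21.4, 21.3 and 19.2 CPM in the 3 LIN9KO libraries. Experiment 2 gave Lin9 29.3, 28.1 and 23.2 CPM in LIN9wt/SAV1wt, 19.2, 31.4 and 25.6 CPM in LIN9wt/SAV1KO, 13.1, 15.4 and 17.9 CPM in LIN9KO/SAV1wt and 23.5, 26.1 and 18.5 CPM in LIN9KO/SAV1KO. Lin9 had a log2 fold change, LIN9KO over LIN9wt, of -0.31 ± 0.14 (SE) in experiment 1, -0.80 ± 0.19 with Sav1 wt and -0.16 ± 0.18 with Sav1 KO, with edgeR adjusted p = 0.13, 0.0027 and 0.586. Over the alternatives the Lin9 estimate ran from -0.42 to -0.19 in experiment 1, lowest without LIN9wt replicate 2 and highest without LIN9wt replicate 1. With Sav1 wt it ran from -0.94 to -0.71, and with Sav1 KO from -0.33 to 0.02, where the sign turned without LIN9wt/SAV1KO replicate 2. The Lin9 values of LIN9KO/SAV1KO overlapped with those of LIN9wt/SAV1KO, while with Sav1 wt each LIN9KO library was below each LIN9wt library. In experiment 1 the highest LIN9KO value and the lowest LIN9wt value were equal to 3 digits. Sav1 was at 54.5, 56.2 and 61.9 CPM in LIN9wt/SAV1wt, 43.1, 36.1 and 43.0 CPM in LIN9wt/SAV1KO, 51.9, 49.9 and 47.3 CPM in LIN9KO/SAV1wt and 44.0, 40.5 and 42.3 CPM in LIN9KO/SAV1KO. Each SAV1KO library was below each SAV1wt library of its LIN9 genotype, with log2 fold changes of -0.50 ± 0.12 (SE, edgeR adjusted p = 0.318) in LIN9 wt and -0.23 ± 0.12 (SE, edgeR adjusted p = 0.464) in LIN9 KO. A count over a whole gene also holds reads of the exons left in place and of cells without Cre, so these values do not check the deletion of exon 7 or exon 3. Of the exonic length of Sav1, 25.4% lies under Atl1 on the other strand, and whether the counting used strand is not given in the sources used here.

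The first principal component of the libraries separated the LIN9 genotypes in both experiments and held 68.5% and 54% of the variance. In experiment 2, LIN9KO/SAV1wt replicate 1 stood apart on the second component, at 30.5 against -10.7 to 10.9 for the other 11 libraries. Without it, 22 of the 34 genes were called in LIN9KO over LIN9wt with Sav1 wt, against 24 with it (edgeR), and 0 of the 34 were called for Sav1 loss with LIN9 KO with or without it. Of all genes, 2092 of 17681 rose and 2024 fell with LIN9 loss without it, against 2254 and 1849 of 17675 with it. For Sav1 loss with LIN9 KO, 1 rose and 3 fell without it, against 0 and 2 with it.

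Most of the p53 genes were higher in LIN9KO than in LIN9wt hearts. In experiment 1, 21 of 34 rose and 3 fell past an edgeR adjusted p of 0.05, where 11.1% of all 19752 genes tested rose and 9.78% fell. With Sav1 wt in experiment 2, 21 rose and 3 fell, where 12.8% of 17675 genes rose and 10.5% fell, and with Sav1 KO 20 rose and 2 fell, where 11.8% rose and 11.6% fell. Median log2 fold changes over the 34 were 0.55, 0.62 and 0.58, beside 0.02, 0.01 and 0.03 over all genes tested. These 3 comparisons share no library, although those of experiment 2 share 1 fit. In all 3 of them 18 genes rose, where 6.47% of the 17656 genes tested in both experiments did, and 2 fell, where 5.53% did. The 18 were Apaf1, Bbc3, Btg2, Ccng1, Cdkn1a, Dram1, Eda2r, Ercc5, Phlda3, Plk2, Pltp, Pmaip1, Polk, Psrc1, Sesn2, Tnfrsf10b, Trp53inp1 and Zmat3, and the 2 were Ak1 and Perp. In 1 or 2 of the comparisons, calls of Bbc3, Btg2, Dram1, Ercc5, Pltp, Polk, Sesn2, Zmat3 and Ak1 were lost under at least 1 alternative, as given with each gene. Bax, Fas, Gadd45a and Mdm2 rose and Rrm2b fell in 1 or 2 of the comparisons. Aen, Ei24, Fdxr, Plk3, Rps27l, Sesn1, Triap1, Trp53 and Xpc were called in none, although Aen passed under some alternatives. In bulk RNA, fewer cells of a type and less RNA per cell cannot be told apart.

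Together the 34 genes took 0.170% to 0.181% of counts in the LIN9wt libraries of experiment 1 and 0.230% to 0.246% in the LIN9KO libraries. Their summed level was 1708, 1702 and 1791 CPM in LIN9wt and 2402, 2456 and 2416 CPM in LIN9KO, higher in each LIN9KO library. In experiment 2 it was 1629.6, 1656 and 1661 CPM in LIN9wt/SAV1wt and 1618, 1583 and 1559.5 CPM in LIN9wt/SAV1KO. It was 2386, 2497 and 2373 CPM in LIN9KO/SAV1wt and 2540.0, 2452 and 2515 CPM in LIN9KO/SAV1KO. Each LIN9KO library of experiment 2 also had a higher sum than each LIN9wt library.

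Markers of several cell types moved with LIN9 loss as well. Their counts stand beside the same shares of all genes as those of the p53 genes. Of 13 erythroid genes tested, 12, 13 and 12 rose in experiment 1, with Sav1 wt and with Sav1 KO, with median log2 fold changes of 2.56, 2.77 and 2.42. In experiment 1 the erythroid sum was 10973, 7925 and 9205 CPM in LIN9wt and 90877, 46911 and 34919 CPM in LIN9KO. In experiment 2 the erythroid sum was 5354, 4265 and 4398 CPM in LIN9wt/SAV1wt, 3646, 3342 and 4382 CPM in LIN9wt/SAV1KO, 21240.0, 30657 and 39080.0 CPM in LIN9KO/SAV1wt and 30883, 19480.0 and 10712 CPM in LIN9KO/SAV1KO. Hbb-y or Hba-a1 was the most abundant erythroid gene in each library, Hba-a1 and Hba-a2 can share reads, and Alas2 was at 0 in all 18 libraries. Of 9 cardiomyocyte genes, 7, 7 and 7 fell, with medians of -0.80, -0.76 and -0.999. In experiment 1 the cardiomyocyte sum was 20421, 21207 and 20873 CPM in LIN9wt and 9941, 13039 and 9470.4 CPM in LIN9KO. In experiment 2 the cardiomyocyte sum was 22364, 21681 and 21676 CPM in LIN9wt/SAV1wt, 23793, 22538 and 23548 CPM in LIN9wt/SAV1KO, 13029, 11502 and 10263 CPM in LIN9KO/SAV1wt and 10580.0, 12023 and 12915 CPM in LIN9KO/SAV1KO. Myh7, Myl2 or Tnnt2 led the cardiomyocyte sum, and no cardiomyocyte marker was at 0.

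Of 9 macrophage genes, 8, 6 and 8 rose, with medians of 1.04, 0.92 and 1.26. In experiment 1 the macrophage sum was 91.0, 96.7 and 94.5 CPM in LIN9wt and 163, 196 and 159.5 CPM in LIN9KO. In experiment 2 the macrophage sum was 108, 109 and 111 CPM in LIN9wt/SAV1wt, 90.2, 93.2 and 109 CPM in LIN9wt/SAV1KO, 214, 177 and 182 CPM in LIN9KO/SAV1wt and 187, 231 and 243 CPM in LIN9KO/SAV1KO. Csf1r or Mrc1 led the macrophage sum. Of 6 fibroblast genes, 5, 5 and 6 rose, with medians of 0.97, 0.78 and 0.88. In experiment 1 the fibroblast sum was 2151, 1947 and 1881 CPM in LIN9wt and 3847, 4162 and 3987 CPM in LIN9KO. In experiment 2 the fibroblast sum was 2480.3, 2678 and 2500.4 CPM in LIN9wt/SAV1wt, 2530.0, 2879 and 2415 CPM in LIN9wt/SAV1KO, 5125, 5334 and 4258 CPM in LIN9KO/SAV1wt and 4401, 4820.5 and 5493 CPM in LIN9KO/SAV1KO. Col3a1 led that sum in each library. Of 6 epicardial genes, 5, 5 and 5 rose, with medians of 0.98, 1.18 and 1.03. In experiment 1 the epicardial sum was 293, 286 and 279 CPM in LIN9wt and 533, 496 and 561 CPM in LIN9KO. In experiment 2 the epicardial sum was 256, 253 and 257 CPM in LIN9wt/SAV1wt, 213, 249 and 250.4 CPM in LIN9wt/SAV1KO, 479, 440.2 and 564 CPM in LIN9KO/SAV1wt and 436, 427 and 439 CPM in LIN9KO/SAV1KO. Upk3b, Tbx18 or Wt1 led it, and no macrophage, fibroblast or epicardial marker was at 0. The part of these cell types in the p53 gene values was not tested. With haemoglobin genes left out of the library sizes and the tables, 24, 22 and 22 of the 34 genes were called in experiment 1, with Sav1 wt and with Sav1 KO (edgeR). Of all genes in those fits, 2210 of 19743 rose and 1904 fell in experiment 1. With Sav1 wt 2121 of 17667 rose and 1926 fell, and with Sav1 KO 1989 rose and 2138 fell. Leaving these genes out does not remove other RNA of any cell type.

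**Figure D1:**
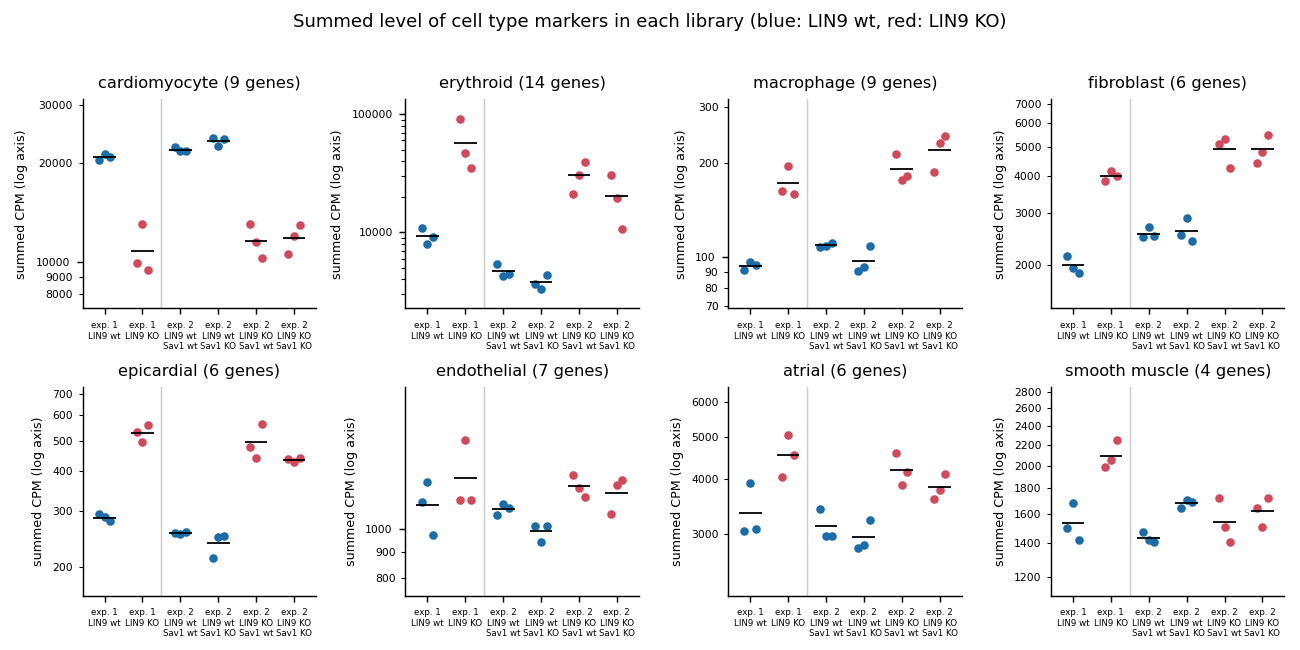
Summed CPM of the markers of 8 cell types in each library, on log axes that do not start at 0. Dots are libraries (blue LIN9wt, red LIN9KO) and bars are means of 3 libraries. The erythroid sum runs from 7925 to 10973 CPM in LIN9wt and from 34919 to 90877 CPM in LIN9KO of experiment 1, and the cardiomyocyte sum is lower in each LIN9KO library.

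Levels differed widely between the genes. Per kilobase of exon, the mean level in LIN9wt of experiment 1 was 85.8 ± 15.4 CPM (SD, n = 3) for Rps27l, 83.6 ± 5.08 for Ak1 and 81.4 ± 6.76 for Ccng1, and these 3 differed by less than the SD of Rps27l. Perp followed with 58.4 ± 4.00, then Plk2 with 35.4 ± 2.33 and Phlda3 with 31.9 ± 3.25. The lowest levels were those of Fas at 1.14 ± 0.327, Pmaip1 at 1.03 ± 0.305 and Dram1 at 0.854 ± 0.0837, which differed by less than the SD of Fas. In LIN9KO, Ccng1 had the highest level, 150.1 ± 12.4 CPM per kilobase, and Cdkn1a reached 43.2 ± 2.52.

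**Figure D2:**
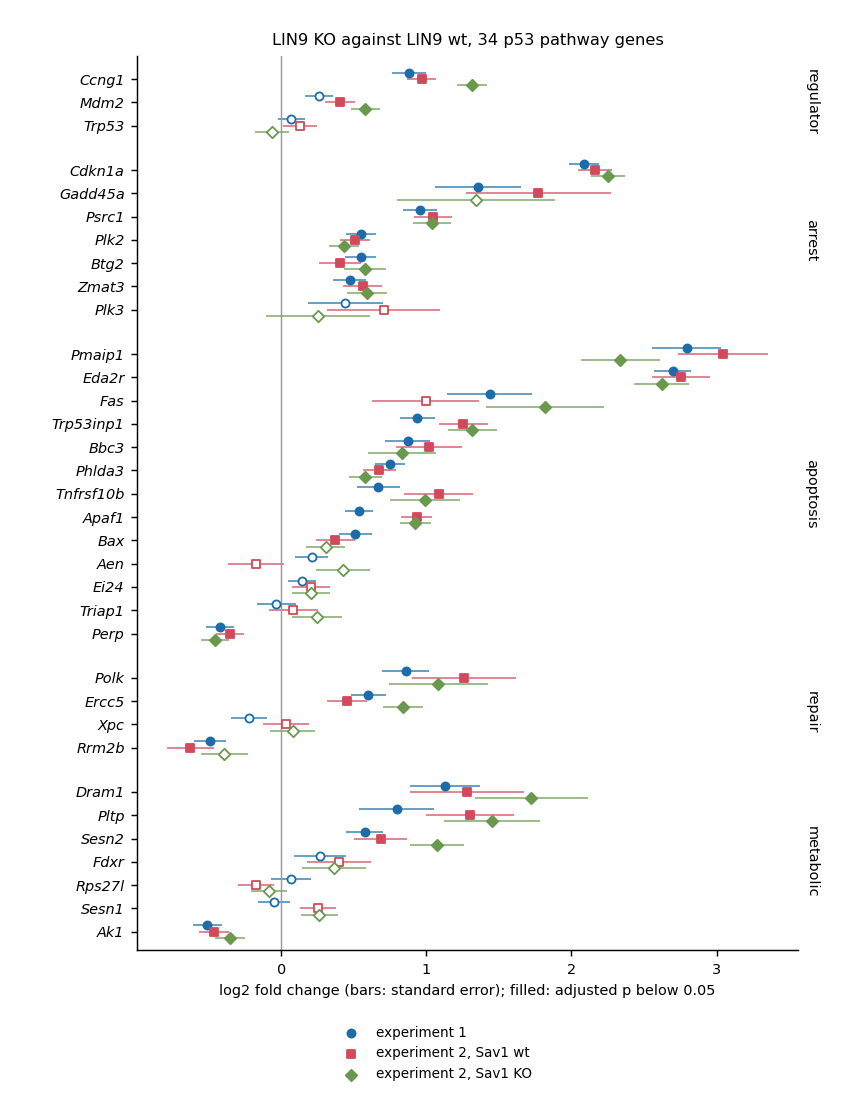
Log2 fold change of LIN9KO over LIN9wt for the 34 genes, by role, in experiment 1 and in experiment 2 with Sav1 wt or Sav1 KO. Points are estimates, bars are standard errors and filled points have an edgeR adjusted p below 0.05. Pmaip1, Eda2r and Cdkn1a lie farthest to the right in each comparison, between 2.08 and 3.04, while Ak1, Perp and Rrm2b lie to the left of 0 in each.

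Among the regulators, Ccng1 rose in all 3 comparisons, Mdm2 rose in both comparisons of experiment 2 and Trp53 was called in none. Trp53 was at 74.4, 75.05 and 68.5 CPM in the 3 LIN9wt libraries of experiment 1 and at 74.8, 77.6 and 76.1 CPM in the 3 LIN9KO libraries. Experiment 2 gave Trp53 73.5, 67.2 and 63.0 CPM in LIN9wt/SAV1wt, 81.4, 78.3 and 76.8 CPM in LIN9wt/SAV1KO, 75.9, 75.8 and 70.5 CPM in LIN9KO/SAV1wt and 62.7, 77.8 and 85.7 CPM in LIN9KO/SAV1KO. LIN9 genotypes overlapped for Trp53 in each comparison. Trp53 had a log2 fold change, LIN9KO over LIN9wt, of 0.07 ± 0.09 (SE) in experiment 1, 0.13 ± 0.12 with Sav1 wt and -0.06 ± 0.12 with Sav1 KO, with edgeR adjusted p = 0.68, 0.497 and 0.741. Over the alternatives the Trp53 estimate ran over 0.03 to 0.09, 0.08 to 0.17 and -0.18 to 0.02 in the same order. With Sav1 KO its sign thus turned. Mdm2 was at 97.9, 91.6 and 102 CPM in the 3 LIN9wt libraries of experiment 1 and at 114, 118 and 117 CPM in the 3 LIN9KO libraries. Experiment 2 gave Mdm2 103, 88.7 and 103 CPM in LIN9wt/SAV1wt, 92.9, 96.6 and 95.5 CPM in LIN9wt/SAV1KO, 131, 139 and 120.0 CPM in LIN9KO/SAV1wt and 132, 146 and 148 CPM in LIN9KO/SAV1KO. Each LIN9KO library was above each LIN9wt library for Mdm2 in both experiments. Mdm2 had a log2 fold change, LIN9KO over LIN9wt, of 0.26 ± 0.10 (SE) in experiment 1, 0.40 ± 0.10 with Sav1 wt and 0.58 ± 0.10 with Sav1 KO, with edgeR adjusted p = 0.0688, 0.00433 and 0.000106. Ccng1 was at 275, 269 and 313 CPM in the 3 LIN9wt libraries of experiment 1 and at 547, 557 and 477 CPM in the 3 LIN9KO libraries. Experiment 2 gave Ccng1 236, 271 and 279 CPM in LIN9wt/SAV1wt, 216, 232 and 238 CPM in LIN9wt/SAV1KO, 452, 529 and 555 CPM in LIN9KO/SAV1wt and 607, 556 and 543 CPM in LIN9KO/SAV1KO. Ccng1, which encodes cyclin G1, a partner of the phosphatase PP2A in control of MDM2, was higher in each LIN9KO library than in any LIN9wt library. Ccng1 had a log2 fold change, LIN9KO over LIN9wt, of 0.88 ± 0.12 (SE) in experiment 1, 0.97 ± 0.10 with Sav1 wt and 1.31 ± 0.10 with Sav1 KO, with edgeR adjusted p = 8.88e-05, 4.27e-08 and 2.06e-10. Whether the Mdm2 change differed between the experiments was not tested. The Mdm2 call with Sav1 wt was lost without LIN9wt/SAV1wt replicate 2 (0.0684) or LIN9KO/SAV1wt replicate 2 (0.0533), edgeR adjusted p in parentheses, against 0.00351 to 0.0684 over all alternatives, DESeq2 included. In experiment 1, Mdm2 passed 0.05 with the filterByExpr filter (edgeR adjusted p = 0.0459), where the adjusted p ran over 0.0368 to 0.207 for its alternatives.

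Of the 7 arrest genes, 6 rose in experiment 1, 6 with Sav1 wt and 5 with Sav1 KO, and 0 fell, beside 11.1%, 12.8% and 11.8% of all genes tested that rose. Their median log2 fold changes were 0.55, 0.71 and 0.59. Cdkn1a, the gene of p21, had the largest change of them. Cdkn1a was at 34.8, 38.3 and 35.5 CPM in the 3 LIN9wt libraries of experiment 1 and at 149, 148 and 164 CPM in the 3 LIN9KO libraries. Experiment 2 gave Cdkn1a 33.6, 37.3 and 33.5 CPM in LIN9wt/SAV1wt, 32.3, 32.1 and 37.5 CPM in LIN9wt/SAV1KO, 164, 164 and 139 CPM in LIN9KO/SAV1wt and 163, 147 and 177 CPM in LIN9KO/SAV1KO. All LIN9KO libraries lay between 139 and 177 CPM and all LIN9wt libraries between 32.1 and 38.3 CPM. Of the exonic length of Cdkn1a, 7.68% lies under AC167363.2 on the other strand. Cdkn1a had a log2 fold change, LIN9KO over LIN9wt, of 2.08 ± 0.10 (SE) in experiment 1, 2.16 ± 0.12 with Sav1 wt and 2.25 ± 0.12 with Sav1 KO, with edgeR adjusted p = 1.09e-08, 4.66e-13 and 8.37e-14. Psrc1 was at 27.1, 26.0 and 24.0 CPM in the 3 LIN9wt libraries of experiment 1 and at 42.8, 53.8 and 53.2 CPM in the 3 LIN9KO libraries. Experiment 2 gave Psrc1 25.6, 25.0 and 23.2 CPM in LIN9wt/SAV1wt, 22.9, 26.3 and 24.6 CPM in LIN9wt/SAV1KO, 52.3, 51.2 and 49.2 CPM in LIN9KO/SAV1wt and 46.4, 53.5 and 51.9 CPM in LIN9KO/SAV1KO. Psrc1, which encodes a microtubule-associated protein of the mitotic spindle, was higher in each LIN9KO library than in any LIN9wt library. Its place among the arrest genes is an assignment by list, and a part in arrest was not tested. Psrc1 had a log2 fold change, LIN9KO over LIN9wt, of 0.96 ± 0.12 (SE) in experiment 1, 1.05 ± 0.13 with Sav1 wt and 1.04 ± 0.13 with Sav1 KO, with edgeR adjusted p = 5.1e-05, 7.91e-07 and 9.81e-07. Gadd45a was at 2.88, 3.79 and 3.01 CPM in the 3 LIN9wt libraries of experiment 1 and at 12.6, 5.45 and 6.89 CPM in the 3 LIN9KO libraries. Experiment 2 gave Gadd45a 2.99, 1.37 and 0.692 CPM in LIN9wt/SAV1wt, 2.36, 1.69 and 0.682 CPM in LIN9wt/SAV1KO, 6.24, 7.22 and 4.10 CPM in LIN9KO/SAV1wt and 7.16, 3.17 and 1.78 CPM in LIN9KO/SAV1KO. Gadd45a, a damage-induced inhibitor of the kinase CDK1, was low, with 2 to 22 counts a library in experiment 2, where LIN9KO/SAV1KO overlapped with LIN9wt/SAV1KO. Gadd45a had a log2 fold change, LIN9KO over LIN9wt, of 1.36 ± 0.30 (SE) in experiment 1, 1.77 ± 0.50 with Sav1 wt and 1.34 ± 0.54 with Sav1 KO, with edgeR adjusted p = 0.00589, 0.0103 and 0.0762. Of its exonic length 19.1% lies under E230016M11Rik on the other strand, so its counts are uncertain. With Sav1 KO, Gadd45a passed 0.05 with no filter on low counts (0.0293), without LIN9KO/SAV1KO replicate 3 (0.0231) and with only the 6 libraries compared (0.0448), edgeR adjusted p in parentheses, in a range of 0.0231 to 0.523 over all alternatives. Its log2 fold change there ran from 0.61 to 1.74, lowest without LIN9KO/SAV1KO replicate 1 and highest without LIN9wt/SAV1KO replicate 1. Plk2, a polo-like kinase, Zmat3, an RNA-binding protein, and Btg2, an antiproliferative cofactor of mRNA deadenylation, rose in each comparison, with log2 fold changes of 0.47 to 0.55 in experiment 1, 0.40 to 0.56 with Sav1 wt and 0.43 to 0.59 with Sav1 KO. The kinase gene Plk3, of whose exonic length 3.32% lies under Tctex1d4 on the other strand, was not called, at 0.44 ± 0.26, 0.71 ± 0.39 and 0.25 ± 0.36 (SE), and its estimates ran over 0.24 to 0.69, 0.46 to 0.96 and 0.02 to 0.42 with the alternatives. The Zmat3 call in experiment 1 was lost without LIN9wt replicate 1 (0.0549), edgeR adjusted p in parentheses, against 0.00094 to 0.0549 over all alternatives, DESeq2 included. The Btg2 call with Sav1 wt was lost without LIN9wt/SAV1wt replicate 2 (0.249), LIN9wt/SAV1wt replicate 3 (0.113), LIN9KO/SAV1wt replicate 1 (0.135), LIN9KO/SAV1wt replicate 2 (0.119) or LIN9KO/SAV1wt replicate 3 (0.0527) and with the DESeq2 test (0.117), haemoglobin genes left out (0.0524) or only the 6 libraries compared in the fit (0.0652), edgeR or DESeq2 adjusted p in parentheses, against 0.022 to 0.249 over all alternatives, DESeq2 included. The Gadd45a call with Sav1 wt was lost without LIN9wt/SAV1wt replicate 2 (0.0599), LIN9wt/SAV1wt replicate 3 (0.0641) or LIN9KO/SAV1wt replicate 2 (0.0636), edgeR adjusted p in parentheses, against 0.000614 to 0.0641 over all alternatives, DESeq2 included. The Btg2 call with Sav1 KO was lost without LIN9KO/SAV1KO replicate 3 (0.0722), edgeR adjusted p in parentheses, against 0.0003 to 0.0722 over all alternatives, DESeq2 included.

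The apoptosis genes held the highest fold changes of the set. Of 13, 9 rose and 1 fell in experiment 1, and 8 rose and 1 fell with Sav1 wt and likewise with Sav1 KO, beside 11.1%, 12.8% and 11.8% of all genes that rose and 9.78%, 10.5% and 11.6% that fell. The share of apoptosis genes that fell was thus no higher than that of all genes. Their median log2 fold changes were 0.67, 0.93 and 0.83. Pmaip1, which encodes NOXA, a BH3-only protein that opens the mitochondrial route, had the largest estimate of them in experiment 1 and with Sav1 wt. Its ranges over the alternatives overlapped with those of Eda2r, at 2.56 to 2.96 against 2.61 to 2.76 and 2.84 to 3.16 against 2.53 to 2.98. Pmaip1 was at 1.85, 3.27 and 3.32 CPM in the 3 LIN9wt libraries of experiment 1 and at 20.2, 14.8 and 23.8 CPM in the 3 LIN9KO libraries. Experiment 2 gave Pmaip1 1.66, 2.74 and 2.42 CPM in LIN9wt/SAV1wt, 3.70, 4.39 and 4.78 CPM in LIN9wt/SAV1KO, 16.1, 23.0 and 17.9 CPM in LIN9KO/SAV1wt and 29.3, 20.8 and 15.3 CPM in LIN9KO/SAV1KO. LIN9KO and LIN9wt groups did not overlap for Pmaip1. Pmaip1 had a log2 fold change, LIN9KO over LIN9wt, of 2.79 ± 0.24 (SE) in experiment 1, 3.04 ± 0.31 with Sav1 wt and 2.34 ± 0.27 with Sav1 KO, with edgeR adjusted p = 3.24e-06, 2.64e-08 and 2.1e-07. Eda2r was at 9.06, 9.38 and 7.58 CPM in the 3 LIN9wt libraries of experiment 1 and at 52.5, 60.4 and 56.4 CPM in the 3 LIN9KO libraries. Experiment 2 gave Eda2r 8.31, 5.82 and 10.7 CPM in LIN9wt/SAV1wt, 12.5, 11.8 and 6.14 CPM in LIN9wt/SAV1KO, 47.7, 56.1 and 65.2 CPM in LIN9KO/SAV1wt and 64.4, 62.7 and 60.8 CPM in LIN9KO/SAV1KO. Eda2r, a receptor of the tumour necrosis factor family, was likewise apart in each comparison. Eda2r had a log2 fold change, LIN9KO over LIN9wt, of 2.70 ± 0.13 (SE) in experiment 1, 2.76 ± 0.20 with Sav1 wt and 2.62 ± 0.19 with Sav1 KO, with edgeR adjusted p = 7.67e-09, 1.84e-10 and 1.51e-10. Trp53inp1 was at 62.4, 46.6 and 52.8 CPM in the 3 LIN9wt libraries of experiment 1 and at 112, 105 and 92.9 CPM in the 3 LIN9KO libraries. Experiment 2 gave Trp53inp1 38.6, 55.5 and 58.1 CPM in LIN9wt/SAV1wt, 48.5, 51.7 and 48.4 CPM in LIN9wt/SAV1KO, 94.3, 148 and 121 CPM in LIN9KO/SAV1wt and 128, 139 and 104 CPM in LIN9KO/SAV1KO. Trp53inp1, a nuclear protein that promotes p53 activity, was higher in each LIN9KO library than in any LIN9wt library. Trp53inp1 had a log2 fold change, LIN9KO over LIN9wt, of 0.94 ± 0.12 (SE) in experiment 1, 1.26 ± 0.17 with Sav1 wt and 1.32 ± 0.17 with Sav1 KO, with edgeR adjusted p = 6.56e-05, 4.56e-05 and 2.97e-05.

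Apaf1, the scaffold of the apoptosome, Bbc3, which encodes the BH3-only protein PUMA, Phlda3, an inhibitor of AKT, and Tnfrsf10b, a death receptor, rose in each comparison, with log2 fold changes of 0.54 to 0.87 in experiment 1, 0.68 to 1.08 with Sav1 wt and 0.58 to 0.99 with Sav1 KO. The death receptor gene Fas had log2 fold changes of 1.44 ± 0.29, 0.99 ± 0.37 and 1.82 ± 0.41 (SE) with edgeR adjusted p = 0.00286, 0.0512 and 0.00136, on 2 to 24 counts a library in experiment 2. With Sav1 wt, Fas passed 0.05 with no filter on low counts (0.0422) and without LIN9wt/SAV1wt replicate 2 (0.0278) or LIN9KO/SAV1wt replicate 3 (0.0494), edgeR adjusted p in parentheses, in a range of 0.0278 to 0.237 over all alternatives. Bax, which permeabilises the mitochondrial outer membrane, had 0.51 ± 0.11, 0.37 ± 0.13 and 0.31 ± 0.13 (SE) with edgeR adjusted p = 0.00436, 0.0432 and 0.0998, and 12.2% of its exonic length is shared with Gm45808. Over the alternatives the Bax estimate with Sav1 KO ran from 0.15 to 0.37. Perp, a membrane protein of desmosomes, fell in each, with -0.42 ± 0.10, -0.35 ± 0.10 and -0.46 ± 0.10 (SE). Aen, a nuclease, Ei24, a membrane protein of the endoplasmic reticulum with 6.66% of its exonic length under Gm26787 on the other strand, and Triap1, a mitochondrial inhibitor of apoptosis, were not called, at -0.03 to 0.21 in experiment 1, -0.17 to 0.20 with Sav1 wt and 0.20 to 0.42 with Sav1 KO. Aen passed 0.05 in experiment 1 without LIN9KO replicate 3 (edgeR adjusted p = 0.0468, in a range of 0.0468 to 0.478 over all alternatives). With Sav1 KO it passed with no filter on low counts (0.0187), without LIN9KO/SAV1KO replicate 2 (0.0269) and with only the 6 libraries compared (0.0409), edgeR adjusted p in parentheses, in a range of 0.0187 to 0.497. The Bax call with Sav1 wt was lost without LIN9wt/SAV1wt replicate 1 (0.0698), LIN9wt/SAV1wt replicate 2 (0.181), LIN9wt/SAV1wt replicate 3 (0.114), LIN9KO/SAV1wt replicate 1 (0.129), LIN9KO/SAV1wt replicate 2 (0.068) or LIN9KO/SAV1wt replicate 3 (0.141) and with DESeq2 size factors (0.0509), the DESeq2 test (0.141), no filter on low counts (0.0607), haemoglobin genes left out (0.0557) or only the 6 libraries compared in the fit (0.0952), edgeR or DESeq2 adjusted p in parentheses, against 0.035 to 0.181 over all alternatives, DESeq2 included. The Bbc3 call with Sav1 KO was lost without LIN9wt/SAV1KO replicate 2 (0.068), LIN9wt/SAV1KO replicate 3 (0.0796) or LIN9KO/SAV1KO replicate 2 (0.0631), edgeR adjusted p in parentheses, against 0.000872 to 0.0796 over all alternatives, DESeq2 included.

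**Figure D3:**
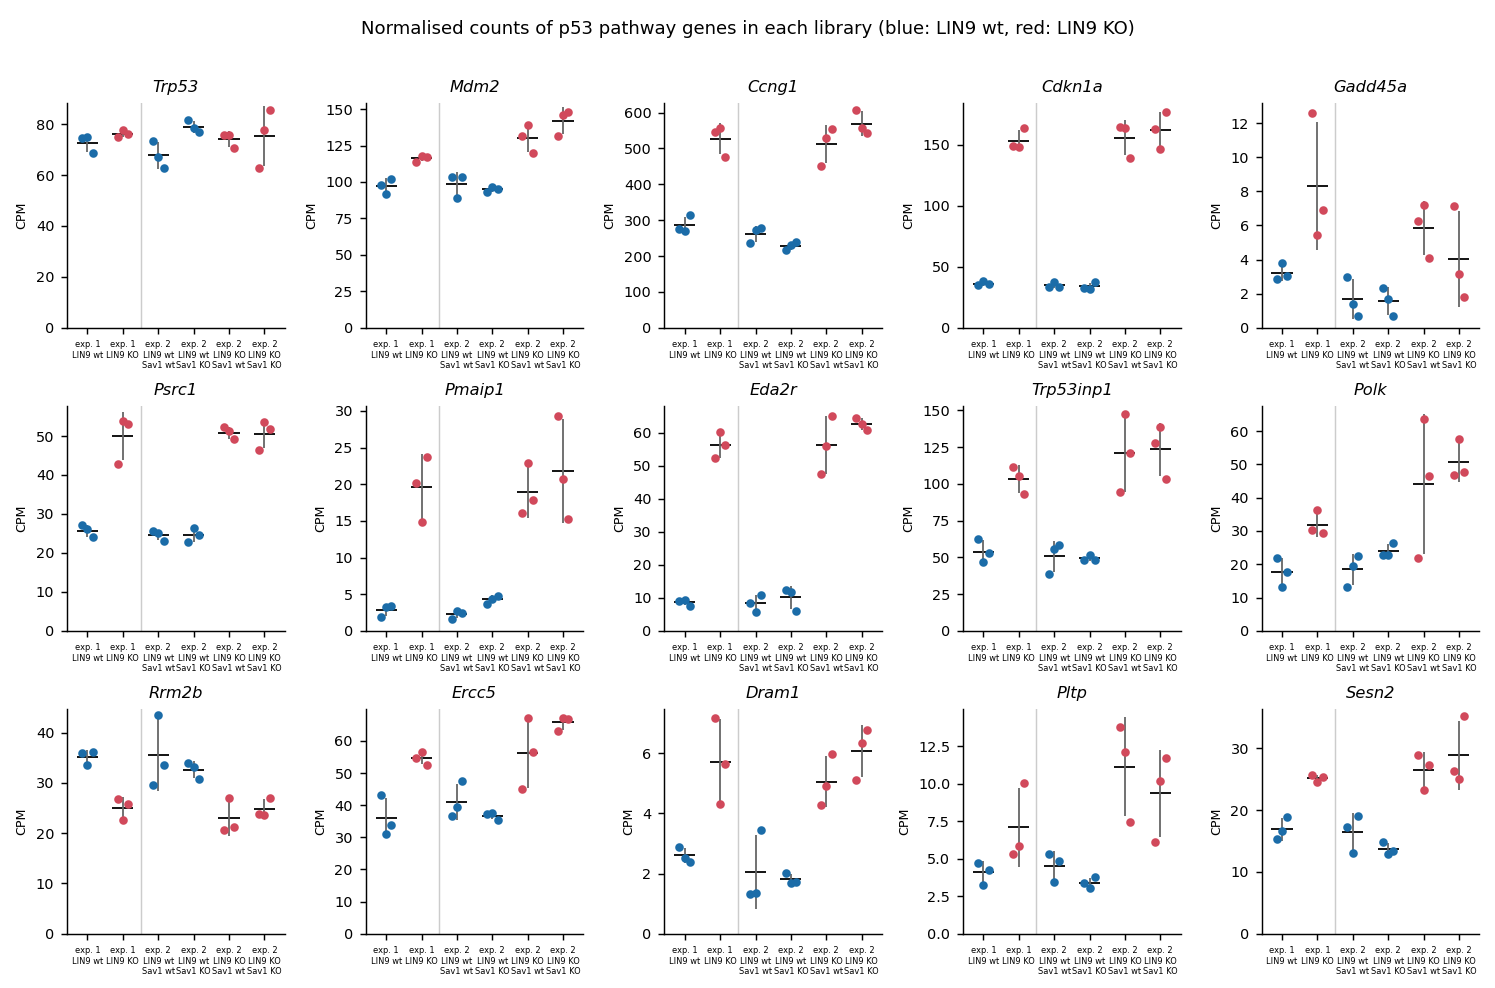
Level in CPM in each library for Trp53, Mdm2 and 13 further genes that passed 0.05 in experiment 1 and with Sav1 wt, 3 at most from each role. Dots are libraries (blue LIN9wt, red LIN9KO), the bar is the mean and the vertical line the SD of 3 libraries. Cdkn1a, Eda2r and Pmaip1 show red dots far above blue ones in both experiments, Rrm2b shows them below, and Trp53 overlaps.

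The 4 repair genes moved in both directions: Polk and Ercc5 rose in each comparison, Rrm2b fell in experiment 1 and with Sav1 wt, and Xpc was not called, beside the same shares of all genes as for the other roles. Polk was at 21.8, 13.3 and 17.7 CPM in the 3 LIN9wt libraries of experiment 1 and at 30.1, 36.2 and 29.4 CPM in the 3 LIN9KO libraries. Experiment 2 gave Polk 13.3, 19.5 and 22.5 CPM in LIN9wt/SAV1wt, 22.9, 22.6 and 26.3 CPM in LIN9wt/SAV1KO, 22.0, 63.6 and 46.6 CPM in LIN9KO/SAV1wt and 46.7, 57.8 and 47.7 CPM in LIN9KO/SAV1KO. Polk encodes a translesion DNA polymerase, and its LIN9KO/SAV1wt replicate 1 lay within the range of the LIN9wt/SAV1wt libraries. Polk had a log2 fold change, LIN9KO over LIN9wt, of 0.86 ± 0.16 (SE) in experiment 1, 1.26 ± 0.36 with Sav1 wt and 1.08 ± 0.34 with Sav1 KO, with edgeR adjusted p = 0.00167, 0.0318 and 0.0477. Ercc5 was at 43.1, 31.1 and 33.97 CPM in the 3 LIN9wt libraries of experiment 1 and at 54.8, 56.4 and 52.7 CPM in the 3 LIN9KO libraries. Experiment 2 gave Ercc5 36.6, 39.4 and 47.4 CPM in LIN9wt/SAV1wt, 37.4, 37.5 and 35.5 CPM in LIN9wt/SAV1KO, 45.0, 67.2 and 56.7 CPM in LIN9KO/SAV1wt and 63.1, 67.3 and 66.9 CPM in LIN9KO/SAV1KO. Ercc5, a nuclease of nucleotide excision repair, overlapped between LIN9 genotypes with Sav1 wt and was apart in the other comparisons. Ercc5 had a log2 fold change, LIN9KO over LIN9wt, of 0.60 ± 0.12 (SE) in experiment 1, 0.45 ± 0.14 with Sav1 wt and 0.84 ± 0.14 with Sav1 KO, with edgeR adjusted p = 0.00241, 0.0157 and 3.97e-05. Rrm2b was at 35.8, 33.6 and 36.2 CPM in the 3 LIN9wt libraries of experiment 1 and at 26.8, 22.7 and 25.7 CPM in the 3 LIN9KO libraries. Experiment 2 gave Rrm2b 29.6, 43.5 and 33.5 CPM in LIN9wt/SAV1wt, 33.99, 33.1 and 30.7 CPM in LIN9wt/SAV1KO, 20.7, 26.9 and 21.2 CPM in LIN9KO/SAV1wt and 23.9, 23.6 and 27.0 CPM in LIN9KO/SAV1KO. Rrm2b, a subunit of ribonucleotide reductase, was lower in each LIN9KO library than in any LIN9wt library of its comparison, and 8.04% of its exonic length lies under Gm49085 on the other strand. Rrm2b had a log2 fold change, LIN9KO over LIN9wt, of -0.49 ± 0.11 (SE) in experiment 1, -0.63 ± 0.16 with Sav1 wt and -0.39 ± 0.16 with Sav1 KO, with edgeR adjusted p = 0.00572, 0.00429 and 0.0751. With only the 6 libraries compared, Rrm2b passed 0.05 with Sav1 KO too (edgeR adjusted p = 0.0405, in a range of 0.0405 to 0.186 over all alternatives). Xpc, a damage sensor of excision repair, had -0.22 ± 0.12, 0.03 ± 0.16 and 0.08 ± 0.16 (SE). Median log2 fold changes of the 4 were 0.19, 0.24 and 0.46. The Polk call with Sav1 wt was lost without LIN9wt/SAV1wt replicate 1 (0.112), LIN9wt/SAV1wt replicate 2 (0.0895), LIN9wt/SAV1wt replicate 3 (0.0507), LIN9KO/SAV1wt replicate 2 (0.0533) or LIN9KO/SAV1wt replicate 3 (0.0803) and with only the 6 libraries compared in the fit (0.158), edgeR adjusted p in parentheses, against 1.85e-08 to 0.158 over all alternatives, DESeq2 included. The Ercc5 call with Sav1 wt was lost without LIN9wt/SAV1wt replicate 1 (0.0994), LIN9wt/SAV1wt replicate 2 (0.0902) or LIN9KO/SAV1wt replicate 2 (0.222) and with the DESeq2 test (0.0541) or only the 6 libraries compared in the fit (0.0621), edgeR or DESeq2 adjusted p in parentheses, against 0.00137 to 0.222 over all alternatives, DESeq2 included. The Polk call with Sav1 KO was lost without LIN9wt/SAV1KO replicate 1 (0.135), LIN9wt/SAV1KO replicate 2 (0.13), LIN9wt/SAV1KO replicate 3 (0.0961), LIN9KO/SAV1KO replicate 1 (0.0829), LIN9KO/SAV1KO replicate 2 (0.138) or LIN9KO/SAV1KO replicate 3 (0.086), edgeR adjusted p in parentheses, against 1.61e-07 to 0.138 over all alternatives, DESeq2 included. Without LIN9KO/SAV1wt replicate 2 the log2 fold change of Ercc5 with Sav1 wt was 0.27.

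Of the 7 metabolic genes, 3 rose and 1 fell in each comparison, beside 11.1% to 12.8% of all genes that rose and 9.78% to 11.6% that fell, so the share that fell was near that of all genes. Median log2 fold changes were 0.27, 0.40 and 0.36. Dram1 was at 2.88, 2.53 and 2.39 CPM in the 3 LIN9wt libraries of experiment 1 and at 7.16, 4.30 and 5.66 CPM in the 3 LIN9KO libraries. Experiment 2 gave Dram1 1.33, 1.37 and 3.46 CPM in LIN9wt/SAV1wt, 2.02, 1.69 and 1.71 CPM in LIN9wt/SAV1KO, 4.27, 4.92 and 5.96 CPM in LIN9KO/SAV1wt and 5.11, 6.34 and 6.76 CPM in LIN9KO/SAV1KO. Dram1, a lysosomal protein that promotes autophagy, had 4 to 19 counts a library in experiment 2. Dram1 had a log2 fold change, LIN9KO over LIN9wt, of 1.13 ± 0.24 (SE) in experiment 1, 1.28 ± 0.39 with Sav1 wt and 1.72 ± 0.39 with Sav1 KO, with edgeR adjusted p = 0.00364, 0.017 and 0.0015. Pltp was at 4.74, 3.27 and 4.26 CPM in the 3 LIN9wt libraries of experiment 1 and at 5.31, 5.87 and 10.1 CPM in the 3 LIN9KO libraries. Experiment 2 gave Pltp 5.32, 3.43 and 4.84 CPM in LIN9wt/SAV1wt, 3.37, 3.04 and 3.75 CPM in LIN9wt/SAV1KO, 13.8, 12.1 and 7.46 CPM in LIN9KO/SAV1wt and 6.14, 10.2 and 11.7 CPM in LIN9KO/SAV1KO. Pltp, a phospholipid transfer protein, shares 19.3% of its exonic length with Ctsa on the other strand, which leaves its counts uncertain. Pltp had a log2 fold change, LIN9KO over LIN9wt, of 0.79 ± 0.26 (SE) in experiment 1, 1.30 ± 0.30 with Sav1 wt and 1.45 ± 0.33 with Sav1 KO, with edgeR adjusted p = 0.0401, 0.00187 and 0.00155. Sesn2 was at 15.2, 16.55 and 18.9 CPM in the 3 LIN9wt libraries of experiment 1 and at 25.6, 24.5 and 25.4 CPM in the 3 LIN9KO libraries. Experiment 2 gave Sesn2 17.3, 13.02 and 19.0 CPM in LIN9wt/SAV1wt, 14.8, 12.8 and 13.3 CPM in LIN9wt/SAV1KO, 28.9, 23.3 and 27.2 CPM in LIN9KO/SAV1wt and 26.2, 25.0 and 35.2 CPM in LIN9KO/SAV1KO. Sesn2, a stress-induced inhibitor of mTORC1 signalling, was higher in each LIN9KO library than in any LIN9wt library. Sesn2 had a log2 fold change, LIN9KO over LIN9wt, of 0.57 ± 0.13 (SE) in experiment 1, 0.68 ± 0.18 with Sav1 wt and 1.07 ± 0.18 with Sav1 KO, with edgeR adjusted p = 0.00436, 0.00579 and 7.09e-05. Ak1, an adenylate kinase of muscle and other tissues, fell, with -0.51 ± 0.10, -0.47 ± 0.10 and -0.35 ± 0.10 (SE). Sesn1, the ferredoxin reductase gene Fdxr and the ribosomal paralogue Rps27l, whose reads can be shared with Rps27, were not called, at -0.05 to 0.27 in experiment 1, -0.18 to 0.40 with Sav1 wt and -0.09 to 0.36 with Sav1 KO. The Pltp call in experiment 1 was lost without LIN9wt replicate 1 (0.0663), LIN9wt replicate 2 (0.161), LIN9wt replicate 3 (0.1) or LIN9KO replicate 3 (0.187), edgeR adjusted p in parentheses, against 0.00603 to 0.187 over all alternatives, DESeq2 included. The Sesn2 call with Sav1 wt was lost without LIN9wt/SAV1wt replicate 2 (0.071), edgeR adjusted p in parentheses, against 0.00225 to 0.071 over all alternatives, DESeq2 included. The Dram1 call with Sav1 wt was lost without LIN9wt/SAV1wt replicate 1 (0.0896), LIN9wt/SAV1wt replicate 2 (0.0977) or LIN9KO/SAV1wt replicate 3 (0.0647) and with the DESeq2 test (0.0723), edgeR or DESeq2 adjusted p in parentheses, against 0.00515 to 0.0977 over all alternatives, DESeq2 included. The Ak1 call with Sav1 KO was lost without LIN9wt/SAV1KO replicate 1 (0.0594) or LIN9KO/SAV1KO replicate 2 (0.0535), edgeR adjusted p in parentheses, against 0.00364 to 0.0594 over all alternatives, DESeq2 included. Without LIN9KO replicate 3 the log2 fold change of Pltp in experiment 1 was 0.45.

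The effect of Sav1 loss was read in each LIN9 background. With LIN9 wt, 0 of 34 genes passed an edgeR adjusted p of 0.05, where 0.017% of 17675 genes did, and with LIN9 KO 0 of 34 passed, where 0.0113% did. These shares of all genes rest on 3 and 2 genes, counts that ran over 0 to 31 and 0 to 378 under the alternatives. The interaction, the Sav1 effect in LIN9 KO minus that in LIN9 wt, also called 0 of 34, where 0% of genes passed. At an unadjusted p under 0.05 there were 1, 1 and 2 of the 34, beside 693, 2093 and 1156 of all genes, and DESeq2 called 0 of the 34 in each. A p that misses the threshold does not show equal levels, so the intervals are given. Over the 34, 95% intervals had a median half-width of 0.31 with LIN9 wt and 0.30 with LIN9 KO on the log2 scale, and 33 of 34 held 0 in each. For the interaction the half-width was 0.44 and 32 of 34 held 0. With LIN9 wt, 10 estimates were positive and 24 negative (median -0.05), and with LIN9 KO 22 were positive and 12 negative (median 0.02), beside 8.1e-05 and 0.00093 over all genes. Leaving out 1 library at a time moved these medians over -0.08 to -0.02 and over -0.02 to 0.05, so the sign of the second depends on single libraries.

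By role, the Sav1 estimates with LIN9 wt ran from -0.19 (Ccng1) to 0.22 (Trp53) for regulators, -0.17 (Btg2) to 0.53 (Plk3) for arrest, -0.71 (Fas) to 0.91 (Pmaip1) for apoptosis, -0.16 (Ercc5) to 0.38 (Polk) for repair and -0.42 (Pltp) to 0.05 (Fdxr) for metabolic genes. With LIN9 KO they ran from 0.02 (Trp53) to 0.15 (Ccng1), -0.53 (Gadd45a) to 0.07 (Plk3), -0.29 (Bbc3) to 0.54 (Aen), 0.08 (Xpc) to 0.22 (Ercc5) and -0.27 (Pltp) to 0.27 (Dram1) in the same order. These estimates missed the threshold, and some moved by over 1.5 times over the alternatives, among them Fas (-1.04 to -0.32), Plk3 (0.30 to 0.80) and Polk (0.19 to 0.54) with LIN9 wt and Gadd45a with LIN9 KO (-1.25 to -0.18). Cdkn1a had a Sav1 effect of -0.04 (95% interval -0.30 to 0.23, edgeR adjusted p = 0.999) with LIN9 wt and 0.06 (95% interval -0.16 to 0.27, edgeR adjusted p = 0.876) with LIN9 KO, and the log2 fold changes of Cdkn1a with LIN9 loss lay outside both intervals. Mdm2 had -0.05 (95% interval -0.27 to 0.16, edgeR adjusted p = 0.999) and 0.12 (95% interval -0.08 to 0.33, edgeR adjusted p = 0.663). With LIN9 wt, 4 of the 34 genes were higher and 2 lower in each SAV1KO library than in any SAV1wt library. Of all 17675 genes, 1055 and 1086 were. Pmaip1 was higher in each of the LIN9wt/SAV1KO libraries than in LIN9wt/SAV1wt, with 0.91 (95% interval 0.08 to 1.74, edgeR adjusted p = 0.999), and its interval alone among the 34 missed 0 there. Aen did so with LIN9 KO, at 48.7, 37.3 and 63.0 CPM in LIN9KO/SAV1KO and 41.7, 26.9 and 33.6 CPM in LIN9KO/SAV1wt, which overlapped, with 0.54 (95% interval 0.15 to 0.93, edgeR adjusted p = 0.243). Without a filter on low counts the edgeR adjusted p of Aen was 0.0183, in a range of 0.0183 to 0.517 over its alternatives. Its log2 fold change for Sav1 loss with LIN9 KO ran from 0.34 to 0.73 over them. In the interaction, Ccng1 had 0.35 (95% interval 0.05 to 0.64, edgeR adjusted p = 0.706) and Aen 0.60 (95% interval 0.04 to 1.15, edgeR adjusted p = 0.751). Interaction estimates of low genes moved with single libraries: over all alternatives that of Fas ran from 0.44 to 1.17, that of Pmaip1 from -0.98 to -0.49 and that of Gadd45a from -1.13 to 0.0016. Calls of Bax, Gadd45a and Rrm2b that stand with Sav1 wt and not with Sav1 KO, and of Fas the other way round, are therefore not shown to differ, and those of Gadd45a, Rrm2b and Fas were also made in the other background under some alternatives. No marker list gene was called in the Sav1 comparisons or the interaction (edgeR).

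**Figure D4:**
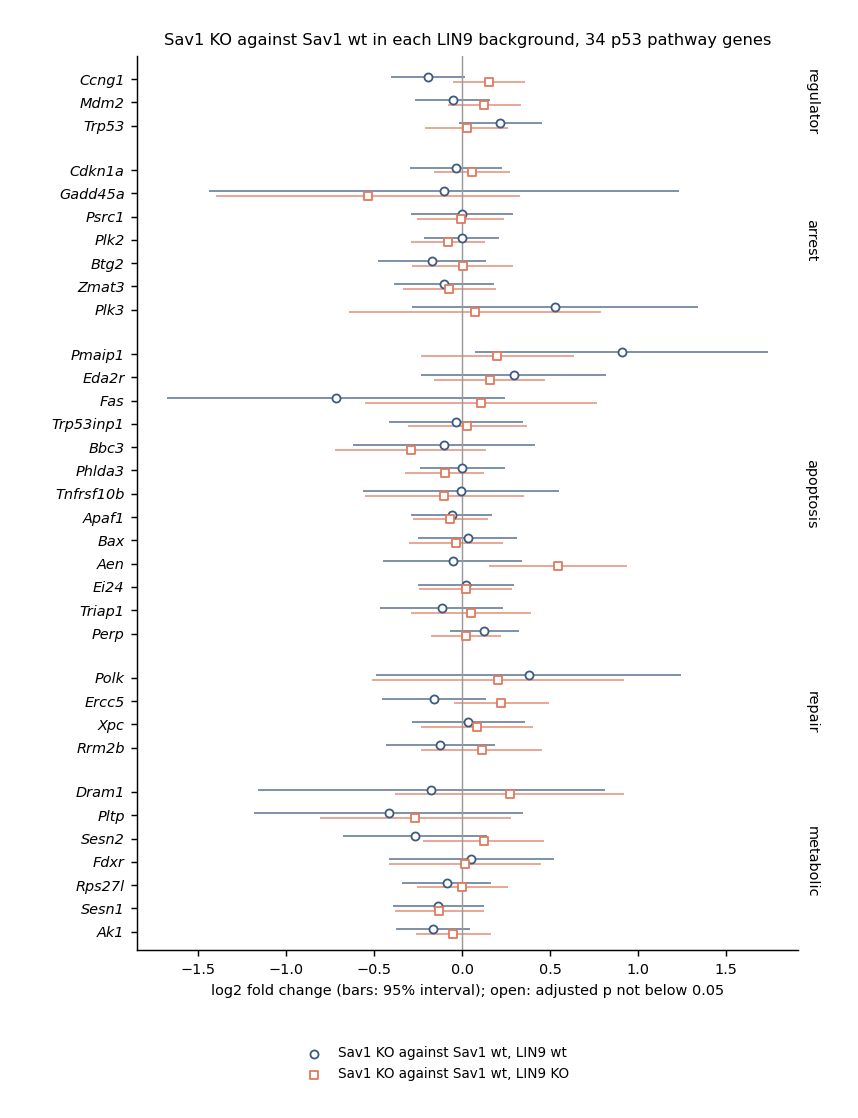
Log2 fold change of Sav1 KO over Sav1 wt for the 34 genes, by role, in the LIN9 wt and LIN9 KO backgrounds. Points are estimates and bars 95% intervals, and open points have an edgeR adjusted p of 0.05 or more, as all 34 do in both. Intervals of all but Pmaip1 (LIN9 wt) and Aen (LIN9 KO) hold 0, and that of Gadd45a is the widest in both backgrounds.

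Other genes of the pathway were read from 2 further lists, beside 11.1%, 12.8% and 11.8% of all genes tested that rose and 9.78%, 10.5% and 11.6% that fell in experiment 1, with Sav1 wt and with Sav1 KO. Nothing particular to either list was tested. Of other p53 regulators, 2 of 18 tested passed 0.05 upwards and 0 downwards in experiment 1. They were Chek2 and Cdkn2a, and Cdkn2a passed the filter on low counts through LIN9KO libraries alone, so Chek2 is the 1 rise to read there. Of the same list, 3 of 16 rose and 0 fell with Sav1 wt and 3 rose and 1 fell with Sav1 KO, with medians of 0.05, 0.05 and 0.09. Chek2, the checkpoint kinase that phosphorylates p53 after DNA breaks, rose in each. Chek2 had log2 fold changes of 0.64 ± 0.12, 1.02 ± 0.15 and 0.82 ± 0.14 (SE) with edgeR adjusted p = 0.00139, 6.3e-06 and 9.38e-05. Chosen after their values were seen, the rest were Ppp1r13b and Ppp1r13l with Sav1 wt, and Ppp1r13b and Rchy1, with Kat5 lower, with Sav1 KO. Of the exonic length of Rchy1 18.0% lies under Thap6 and of that of Kat5 12.1% under Rnaseh2c on the other strand, so their counts are uncertain. Cdkn2a had counts of 0, 0 and 0 in LIN9wt and 1, 2 and 7 in LIN9KO of experiment 1, too few for a fold. Of other p53 targets, 6 of 29 tested rose and 4 fell in experiment 1, 10 rose and 1 fell with Sav1 wt and 7 rose and 3 fell with Sav1 KO, with medians of 0.20, 0.22 and 0.04.

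Among the other targets, Ccng2, Ephx1 and Thbs1 rose in each comparison. Ccng2 had log2 fold changes of 0.91 ± 0.16, 1.38 ± 0.12 and 1.09 ± 0.12 (SE) with edgeR adjusted p = 0.00229, 1.4e-09 and 9.75e-08. Ccng2 encodes cyclin G2, an inhibitor of cell cycle progression. Ephx1 had log2 fold changes of 0.68 ± 0.18, 1.60 ± 0.23 and 1.19 ± 0.22 (SE) with edgeR adjusted p = 0.0133, 5.31e-06 and 0.000221. Ephx1 is a microsomal epoxide hydrolase and Thbs1 the matrix protein thrombospondin. Thbs1 had log2 fold changes of 1.30 ± 0.23, 0.87 ± 0.16 and 0.83 ± 0.16 (SE) with edgeR adjusted p = 0.00431, 0.00076 and 0.00115. Of the exonic length of Thbs1 3.42% lies under Gm29233 on the other strand, and Ephx1 shares 3.69% of its own with Gm36961. Pidd1, a scaffold that activates caspase-2, rose in each comparison, and Cycs, which encodes cytochrome c and has processed pseudogenes that can share its reads, fell in each. Chosen after their values were seen, the other targets that fell were Sesn3, Siah1b and Steap3 in experiment 1 and Sesn3 and Steap3 with Sav1 KO. Siah1b shares sequence with Siah1a, so its counts are uncertain.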

How the data were processed

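Poly-A RNA libraries (NEBNext Ultra II) of 18 samples in 6 groups were sequenced on a NextSeq 500. The authors mapped reads to mm10 with TopHat 2.1.0 and Bowtie2, brought samples down to the smallest number of mappable reads, and counted reads per Ensembl gene of GRCm38.p6 with summarizeOverlaps, and the deposited counts are these whole numbers. Counting mode and strandedness are not given in the sources used here. The authors' tables of log2 fold changes and p-values were not used, and 4 further samples, of ChIP-seq, were not used here.

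Of 48713 lines in each table, 4 identifiers were listed again with the same counts and were kept once. Genes with a mean count above 1 were tested (19752 and 17675) in R 4.3.3 with edgeR 4.0.16: TMM, glmQLFit (robust), glmQLFTest and Benjamini-Hochberg adjustment over all genes tested, called at 0.05. Experiment 1 (6 libraries) and experiment 2 (12 libraries, 1 fit) were fitted apart, and SE is the absolute log2 fold change over the square root of F. The fit was tested on simulated data. Replicates of a group differed by more than counting noise (chi-square per degree of freedom 1.198 to 24.14), so no library was treated as a copy of another, which does not show that they came from separate embryos. Alternatives were DESeq2 1.42.0, its size factors, 2 other filters on low counts, a replicate block, haemoglobin genes left out, only the 6 libraries compared, and each library left out in turn. Exonic overlaps are from GENCODE for mm10 and promoters from RefSeq.

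Members and gene lists were chosen with earlier results of these data known. Values in every library are given for Trp53, Cdkn1a, Mdm2 and, in each role, up to 3 genes past 0.05 in experiment 1 and with Sav1 wt with the largest summed absolute log2 fold change. Of the 2 other p53 lists, genes past 0.05 in both in 1 direction are named, with values for the 4 of largest mean change, of which 1 target is not reported here. Cop1 was not matched, and Serpinb5 was below the filter. Marker lists were cardiomyocyte, atrial, erythroid, macrophage, endothelial, fibroblast, epicardial and smooth muscle.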

Additional observations from a re-analysis of the deposited data

How the results depend on the processing

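In the LIN9 comparisons the total of p53 genes called stayed within 1.5 times under each alternative. Leaving out 1 library at a time gave 22 to 24 called in experiment 1, 17 to 22 with Sav1 wt and 20 to 21 with Sav1 KO. Those called higher with Sav1 wt were 14 to 19 against 21, and those called lower with Sav1 KO 1 to 2 against 2. Median log2 fold changes ran from 0.5367 to 0.6261 with Sav1 wt, 0.5708 to 0.6613 with Sav1 KO and 0.002474 to 0.1025 for the interaction. Calls over all genes with LIN9 loss ran from 2722 to 4223 in experiment 1, 3035 to 4116 with Sav1 wt and 2974 to 3841 with Sav1 KO. Of all genes, 1565 to 2092 were called higher with Sav1 wt, against 2254, and 1475 to 2037 lower with Sav1 KO, against 2055. Calls ran from 0 to 2 for Sav1 with LIN9 wt, 0 to 378 for Sav1 with LIN9 KO and 0 to 64 for the interaction. The 378 and 64 came without LIN9KO/SAV1wt replicate 3. Among all genes, Sav1 with LIN9 KO called 2, and 46 with DESeq2, 309 without a filter, 0 with filterByExpr and 0 with only the 6 libraries compared. Without a filter, 1 p53 gene (Aen, higher) was called there. Sav1 with LIN9 wt called 3, and 22 without a filter and 31 with only the 6 libraries compared. The interaction called 0, and 17 without a filter. The cause of these shifts was not tested. Same-numbered replicates were not paired: correlations of their deviations were 0.0267 to 0.0873 in experiment 1, 0.0891 to 0.393 and -0.0229 to -0.0157 for LIN9 with Sav1 wt and Sav1 KO, and 0.0193 to 0.143 and -0.0514 to 0.073 for Sav1 with LIN9 wt and LIN9 KO. With a block for the replicate number, 25, 25 and 23 p53 genes were called in the LIN9 comparisons and 0 in the others. Calls over all genes in the LIN9 comparisons were 5001, 4370 and 4488 with the block, against 4131, 4103 and 4132 without it. The block added Mdm2 in experiment 1 (edgeR adjusted p = 0.0368, range over alternatives 0.0368 to 0.207), Fas with Sav1 wt (0.0476, 0.0278 to 0.237) and Gadd45a with Sav1 KO (0.0307, 0.0231 to 0.523), and all genes called for Sav1 with LIN9 KO were 84. No called p53 gene changed sign. Libraries of experiment 2 held 2770741 to 2999877 counts, against 9485599 to 9615274 in experiment 1, which limits the precision of low genes.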

Other observations

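Markers of 3 further cell types were also read with LIN9 loss, and the genes named were chosen after their values were seen. Of all genes tested, 11.1% rose and 9.78% fell in experiment 1. With Sav1 wt 12.8% rose and 10.5% fell, and with Sav1 KO 11.8% rose and 11.6% fell. Whether any of these lists moved beyond those shares was not tested. Of 6 atrial genes, 1, 2 and 2 rose and 0, 0 and 0 fell in experiment 1, with Sav1 wt and with Sav1 KO, with median log2 fold changes of 0.25, 0.22 and -0.0048 (edgeR). Those that rose were Nppa, the natriuretic peptide gene of atrial and fetal ventricular muscle, in each comparison and Sln, which encodes sarcolipin, in the last 2. Nppa had log2 fold changes of 1.59 ± 0.16, 1.76 ± 0.14 and 2.04 ± 0.14 (SE) with edgeR adjusted p = 7.97e-06, 7.86e-09 and 1.26e-09. Of 7 endothelial genes, 2, 2 and 4 rose and 0, 1 and 1 fell, with medians of 0.16, 0.18 and 0.39. Pecam1 and Emcn rose in each comparison, Tek and Npr3 rose with Sav1 KO, and Kdr, the receptor of VEGF, fell in both comparisons of experiment 2. Of 4 smooth muscle genes, 1, 1 and 1 rose and 0, 1 and 1 fell, with medians of 0.52, 0.42 and 0.07, Tagln being the 1 that rose in each and Acta2 the 1 that fell in experiment 2.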
